A study of Homo sapiens with 22 samples.

Results

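Hyaluronan synthesis and binding was followed through 6 genes chosen by name: the synthases HAS2 and HAS3, the receptor CD44, the proteoglycan VCAN (versican), and the hyaluronan-binding proteins TNFAIP6 and CEMIP. The genes were taken by name with no threshold on a measured value, although earlier results of these data were known when the list was drawn up. Of these, 5 genes were analysed here among 36859 genes in the table, and HAS2 was not analysed here. RPTEC, an hTERT-immortalized line of human renal proximal tubule epithelial cells, was profiled by RNA-seq in 22 libraries, 2 for each of 11 groups. In 2% serum were WT cells, WT cells given 10 ng/ml TGF-β for 72 h, the CRISPR SETD2 knockout clones KO1 and KO2, and libraries labelled KO2 rescue. In 10% serum were Rescue1 and Rescue2, single colonies of KO cells transduced with lentiviral SETD2, and WT cells transduced with an empty eGFP vector or with SOX2, OCT2 or PRRX1. Each KO and rescue group is therefore 1 clone. The rescue clones differ from the KO clones by serum, lentiviral transduction, blasticidin selection and a further picking of single colonies, as well as by SETD2. Which KO clone Rescue1 and Rescue2 came from is not given in the sources used here, so they were set against the mean of both KO clones and, in an alternative added after seeing the data, against each KO clone alone. Whether the 2 libraries of a group came from separate cultures is not stated, so p-values measure only the spread between them.

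Hyaluronan is a long unsulfated sugar polymer that synthases in the plasma membrane build from UDP-glucuronic acid and UDP-N-acetylglucosamine and push straight out of the cell. Outside the cell it is held by receptors such as CD44, which passes the contact on to the actin cytoskeleton, and it is organised into a coat by versican and by proteins that cross-link it. Hyaluronidases and CEMIP cut it down. It is sparse in the healthy renal cortex and builds up around injured tubules, and CD44 and versican are familiar markers of epithelial to mesenchymal transition.

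HAS3 (ENSG00000103044) lies on chromosome 16 from 69105653 to 69118719 of GRCh38, on the plus strand, and CEMIP (ENSG00000103888) on chromosome 15 from 80779343 to 80951776. CD44 (ENSG00000026508) lies on chromosome 11 from 35138882 to 35232402 and has 18 exons in its reference transcript of 5431 bases. VCAN (ENSG00000038427) lies on chromosome 5 from 83471618 to 83582303, with 15 exons and 12345 bases. TNFAIP6 (ENSG00000123610) lies on chromosome 2 from 151357592 to 151380046. The upstream sequences of HAS3, VCAN and CEMIP are shown because these 3 genes take 3 different courses across the same libraries. They are RefSeq windows of GRCh38.p14 on the plus strand, stopped before the first annotated exon base of the gene within them, with matches to the searched motifs in capitals. The windows of VCAN and CEMIP end at the start of the gene as given above, while that of HAS3 precedes a RefSeq start that lies inside the GENCODE gene, downstream of the starts of its longer transcripts. The window of CD44 lies within an annotated exon and is not shown, and that of TNFAIP6, which was not tested, is not shown either.
HAS3, chr16:69107290-69107539: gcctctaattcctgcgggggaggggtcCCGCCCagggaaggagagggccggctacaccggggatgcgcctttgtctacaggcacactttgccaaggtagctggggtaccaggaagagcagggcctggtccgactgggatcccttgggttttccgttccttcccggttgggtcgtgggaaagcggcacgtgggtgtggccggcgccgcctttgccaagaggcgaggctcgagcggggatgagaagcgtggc
VCAN, chr5:83471494-83471617: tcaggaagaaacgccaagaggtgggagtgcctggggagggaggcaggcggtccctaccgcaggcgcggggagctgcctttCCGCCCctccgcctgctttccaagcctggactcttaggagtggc
CEMIP, chr15:80779120-80779342: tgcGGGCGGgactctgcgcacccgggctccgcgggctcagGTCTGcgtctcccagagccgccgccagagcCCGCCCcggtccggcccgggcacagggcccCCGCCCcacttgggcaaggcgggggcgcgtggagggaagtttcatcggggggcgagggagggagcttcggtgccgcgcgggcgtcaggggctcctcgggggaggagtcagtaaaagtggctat
Both strands were searched for the GC box GGGCGG, the TATA element TATAAA, the SMAD element CAGAC, the AP-1 element TGANTCA, the octamer ATGCAAAT, the SOX element ACAATG and the homeobox element TAATTA. HAS3 holds 1 GC box in 250 bases, a motif found in 42.6% of 35116 RefSeq windows of that length. VCAN holds 1 GC box in 124 bases, where 21.3% of windows of that length do. CEMIP holds 3 GC boxes in 223 bases (39.3% of windows have at least 1) and 1 SMAD element (35% of windows). The other motifs searched were not found in these 3 stretches. The TNFAIP6 window of 250 bases holds 1 SMAD element (38% of windows), 1 AP-1 element (6.57%) and 1 octamer (1.63%), the last 2 overlapping. A match is a description of the letters and not a binding site.

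Libraries held between 11674491 and 16758645 normalized counts, from an approximate 7700000 to 18300000 reads. SETD2, the targeted gene, had 1852 and 2061 normalized counts in WT, 1046 and 1130 in KO1, and 1050 and 1052 in KO2. Rescue1 and Rescue2 had 9764 to 10445. The libraries labelled KO2 rescue had 834 and 820, below KO2, so SETD2 goes against that label and these are written as labelled KO2 rescue throughout. Between 8 and 10 of 10 tubule epithelial markers reached 10 normalized counts in every library. Of 8 markers of the differentiated proximal tubule, 4 or 5 did, GGT1 (225 to 1091), MME (34.4 to 880), CUBN (13.9 to 333) and ANPEP (19 to 472) in every library, while LRP2, VIL1 and SLC34A1 stayed at or near 0 (highest 8.47). AQP1, the remaining marker, ranged from 0 to 448 and reached 10 in 8 of 22 libraries. Some genes that all cells use were listed at 0, HPRT1 in 6 of 22 libraries and POLR2A in 1, and others had low values (a median of 15.4 for POLR2A and 35.5 for EEF2). A 0 is therefore given below as listed at 0 and not as absence, and a low value not as a scarce transcript.

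HAS3, the synthase that makes shorter hyaluronan chains, went in opposite directions with SETD2 loss and with TGF-β. In WT its 2 libraries had 39.3 and 75.2 normalized counts, against 1974 and 1408 in KO1 and 634 and 435 in KO2. With TGF-β it had 4.52 and 4.44. All 4 KO libraries thus exceeded both WT libraries, and both TGF-β libraries lay below them. HAS3 rose by a log2 change of 4.91 in KO1 (SE 0.65, 30.1-fold, limma adjusted p = 2.31e-05) and of 3.25 in KO2 (SE 0.65, 9.49-fold, adjusted p = 0.00138). With TGF-β it fell by 3.34 on the log2 scale (SE 0.65, limma adjusted p = 0.00218), a call that was lost at an adjusted p of 0.0559 when only the WT and TGF-β libraries entered the fit. On the log2 scale as deposited, which compresses low values, the TGF-β change of HAS3 was -0.15 (limma adjusted p = 0.489). Its KO1 and KO2 changes there were 0.93 and 0.44, under the fold threshold (limma adjusted p = 2.41e-05 and 0.0146). Between the KO clones the log2 difference of 1.67 (95% interval 0.27 to 3.06) did not pass (limma adjusted p = 0.101). KO exceeded TGF-β-treated WT by 7.42 (SE 0.56, limma adjusted p = 7.13e-08).

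Rescue1 had 138 and 188 normalized counts of HAS3 and Rescue2 had 384 and 184, so all 4 libraries lay below the KO range and above the WT range. HAS3 fell by 2.17 on the log2 scale from KO to rescue (SE 0.46, limma adjusted p = 0.0013). Against KO1 alone the change was -3 (SE 0.56, limma adjusted p = 0.000502), and against KO2 alone it was -1.34 (SE 0.56), which did not pass (adjusted p = 0.0824). In those labelled KO2 rescue HAS3 was at 139 and 198, a log2 change from KO2 of -1.65 (SE 0.65) that did not pass in the fit of all libraries (limma adjusted p = 0.14) and passed when only those 2 groups were fitted (adjusted p = 0.0225). WT cells with the eGFP vector in 10% serum had 1072 and 142, the widest spread of HAS3 within a group. Their log2 change of 2.82 from WT (SE 0.65, limma adjusted p = 0.00465) rests on replicate 1, since it was 1.37 without it (adjusted p = 0.0545) and 4.28 without replicate 2, and the call was also lost with only those groups fitted (0.129). Rescue and eGFP, the pair matched for serum, differed by -0.91 (95% interval -2.12 to 0.3, limma adjusted p = 0.257), and this value was 0.54 without eGFP replicate 1 and -2.37 without replicate 2 (adjusted p = 0.000978). The SOX2 line had 639 and 848, the OCT2 line 836 and 844 and the PRRX1 line 885 and 670, all between the eGFP libraries. From highest to lowest, group means ran KO1, the OCT2, PRRX1, SOX2 and eGFP lines, KO2, Rescue2, the libraries labelled KO2 rescue, Rescue1, WT and TGF-β. The libraries of neighbours overlapped from the OCT2 line down to KO2, and from Rescue2 down to Rescue1.

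**Figure D1:**
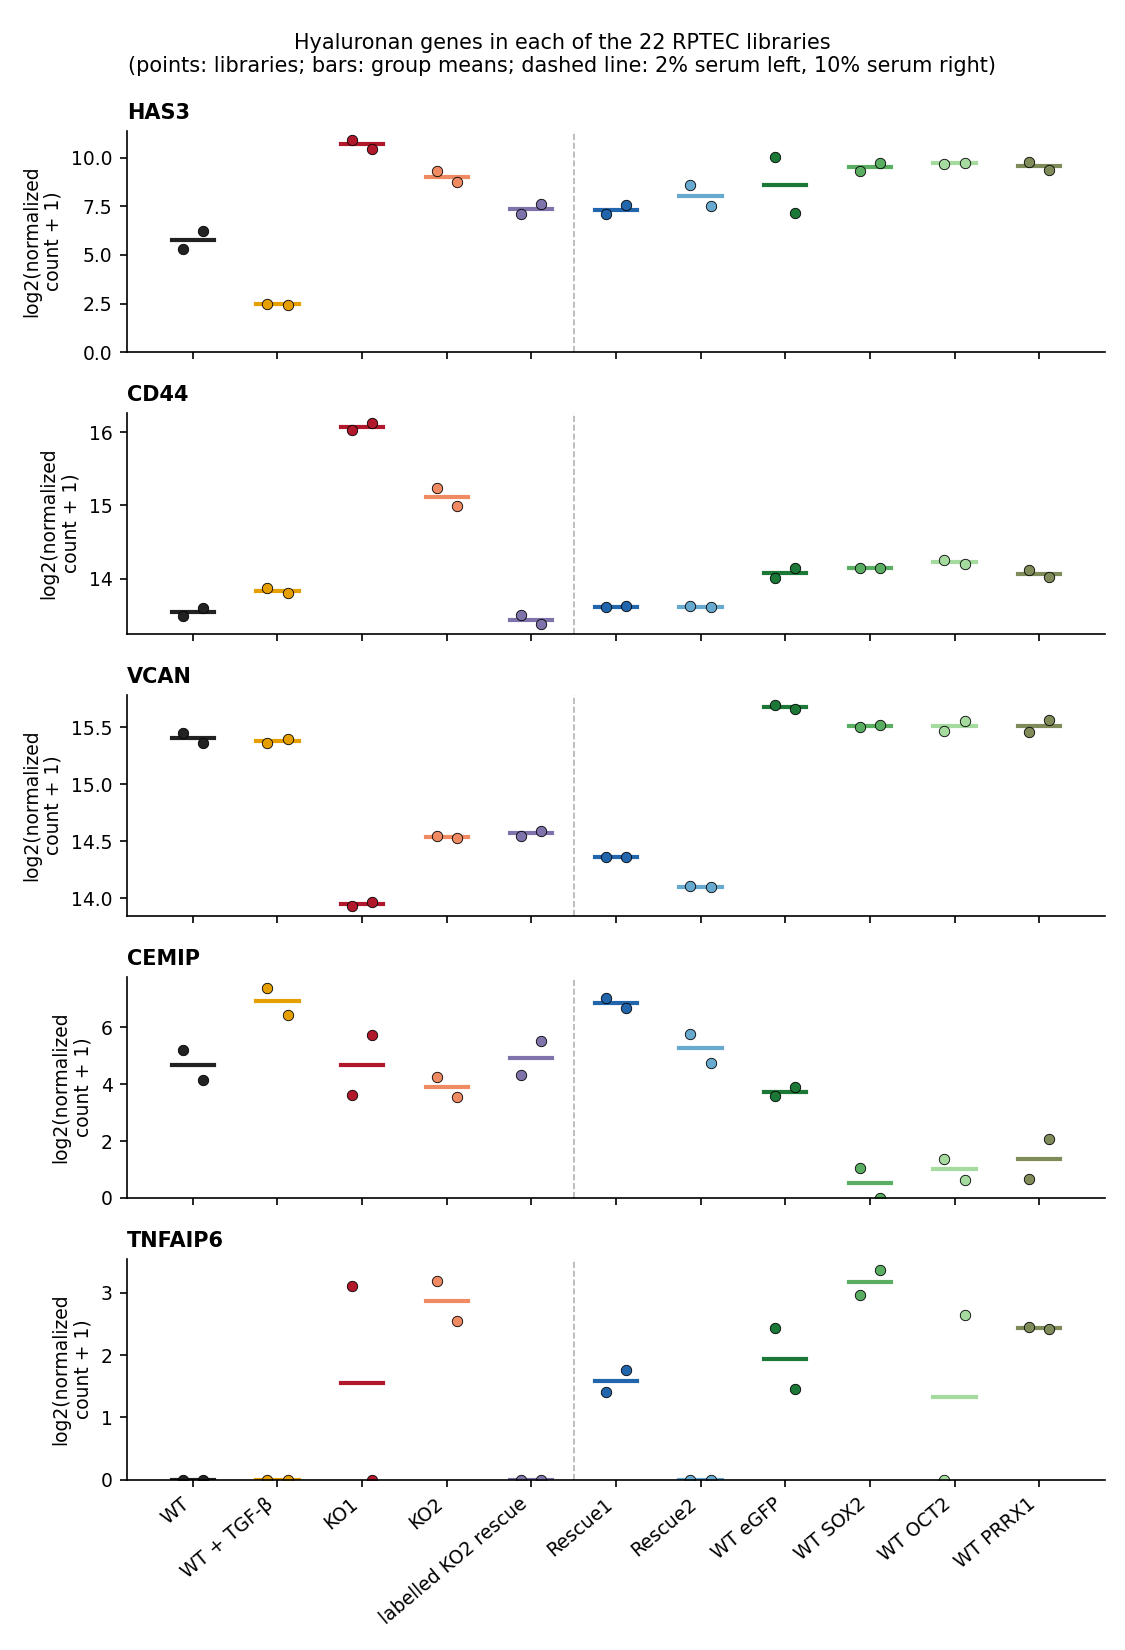
The log2(normalized count + 1) of HAS3, CD44, VCAN, CEMIP and TNFAIP6 (vertical axes, 1 panel a gene, each with its own scale) in the 22 libraries, with points for libraries and bars for group means. CD44 stands highest in the 4 KO libraries (32523 to 71305 normalized counts), VCAN is low in all 10 libraries of KO origin, and HAS3 is lowest with TGF-β (4.52 and 4.44).

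CD44, the main hyaluronan receptor of the cell surface, rose in both KO clones and lay near the WT level in both rescue clones. WT libraries had 11504 and 12409 normalized counts, KO1 66862 and 71305, and KO2 38565 and 32523. The other 18 libraries spanned 10677 to 19607, so no library outside the KO clones reached their lowest value. The share of all genes that set the KO clones apart in this way was not counted. The log2 change was 2.53 in KO1 (SE 0.08, 5.78-fold, limma adjusted p = 2.36e-12) and 1.57 in KO2 (SE 0.08, 2.96-fold, adjusted p = 9.52e-10). KO1 exceeded KO2 by 0.96 (SE 0.08, limma adjusted p = 8.94e-07), just under the fold threshold, and passed it when KO1 replicate 1 (1.01) or KO2 replicate 1 (1.09) was left out and without the trend with GC content and length (1.07). With TGF-β CD44 had 14985 and 14260, a log2 change of 0.29 (SE 0.08, limma adjusted p = 0.0151) that is under the fold threshold. It was 0.06 at equal library totals, a scaling that shifts the median gene by -0.2.

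Rescue1 had 12484 and 12602 normalized counts of CD44 and Rescue2 12623 and 12564, and the libraries labelled KO2 rescue had 11591 and 10677. The WT libraries overlap those labelled KO2 rescue, and both rescue clones lie just above the higher WT library. CD44 fell by 1.98 on the log2 scale from KO to rescue (SE 0.05, limma adjusted p = 5.51e-13), called against KO1 alone (-2.46) and KO2 alone (-1.49) as well. It fell by 1.67 from KO2 to the libraries labelled KO2 rescue (SE 0.08, limma adjusted p = 2.17e-09), whose SETD2 was not raised. The eGFP line had 16477 and 18191, the SOX2 line 18051 and 18170, the OCT2 line 19607 and 18871, and the PRRX1 line 17810 and 16639. All 8 transduced WT libraries were above both WT libraries, with a log2 change of 0.54 from WT to eGFP (SE 0.08, limma adjusted p = 0.000102, under the fold threshold). Rescue lay below eGFP by a log2 value of -0.46 (SE 0.07, limma adjusted p = 8.77e-05), also under that threshold. The order of group means was KO1, KO2, the OCT2, SOX2, eGFP and PRRX1 lines, TGF-β, Rescue2, Rescue1, WT and the libraries labelled KO2 rescue. Libraries of neighbours overlapped from the SOX2 to the PRRX1 line, between Rescue2 and Rescue1, and between WT and the libraries labelled KO2 rescue.

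VCAN, the large chondroitin sulfate proteoglycan that binds hyaluronan and stiffens the pericellular coat, separated the libraries by origin. The 10 libraries from KO1, KO2 and the lines derived from KO cells had 15650 to 24697 normalized counts (median 21072), and the 12 from WT cells, with or without TGF-β or a vector, had 42189 to 52954 (median 45878). The ranges do not overlap, and the share of all genes that part these libraries in the same way was not counted. By group means ZNF667 was also lower in KO1 (2.49), KO2 (4.22) and rescue (2.45) than in WT (156) and eGFP (430). WT had 44806 and 42194, TGF-β-treated WT 42189 and 43065, and the 8 transduced WT libraries 45054 to 52954, all above both WT libraries. The log2 change from WT to eGFP was 0.27 (SE 0.05, limma adjusted p = 0.000556), under the fold threshold, and -0.05 without the trend with GC content and length. KO1 had 15650 and 16011, and KO2 had 23943 and 23687.

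VCAN fell by 1.46 on the log2 scale in KO1 (SE 0.05, limma adjusted p = 4.23e-12), to a share of 0.364 of the WT level. Its log2 change in KO2 was -0.87 (SE 0.05, limma adjusted p = 2.94e-09), under the fold threshold, and -1.09, past it, at equal library totals. KO1 was lower than KO2 by a log2 value of -0.59 (SE 0.05, limma adjusted p = 8.94e-07). With TGF-β the change was -0.03 (95% interval -0.13 to 0.07, limma adjusted p = 0.774), and KO lay below TGF-β-treated WT by -1.13 (SE 0.04, limma adjusted p = 1.29e-11), or -0.85 with quantile normalization, which ends the call.

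In the rescue clones VCAN stayed within the range of the KO clones. Rescue1 had 21117 and 21028 normalized counts and Rescue2 17635 and 17526, against 15650 to 23943 in the KO clones. The log2 change from KO to rescue was -0.01 (95% interval -0.08 to 0.06, limma adjusted p = 0.786), which averages a change of 0.28 against KO1 alone (SE 0.04, adjusted p = 4.31e-05) and of -0.31 against KO2 alone (SE 0.04, adjusted p = 2.95e-05), both under the fold threshold. At equal library totals it was 0.38, the same as the shift of the median gene under that scaling (0.38), and with quantile normalization it was 0.33 (adjusted p = 1.39e-05). Against the eGFP line in the same serum, which had 52954 and 51781, rescue was lower by a log2 value of -1.44 (SE 0.04, limma adjusted p = 4.54e-12). Those labelled KO2 rescue held 24004 and 24697, a log2 change from KO2 of 0.03 (95% interval -0.07 to 0.13, limma adjusted p = 0.787). The SOX2, OCT2 and PRRX1 lines had 45054 to 48490, below both eGFP libraries by a log2 value of -0.16 in each case (limma adjusted p of 0.446, 0.435 and 0.612). In order of mean, the eGFP line was highest, followed by the PRRX1, SOX2 and OCT2 lines, WT, TGF-β, the libraries labelled KO2 rescue, KO2, Rescue1, Rescue2 and KO1. Neighbours overlapped only among the PRRX1, SOX2 and OCT2 lines and between WT and TGF-β.

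The 2 most abundant members therefore exchanged ranks. Per kilobase of reference transcript, WT libraries held 2118 and 2285 normalized counts of CD44 and 3630 and 3418 of VCAN. The ratio of CD44 to VCAN per kilobase was 0.584 and 0.669 in WT and below 1 in all 12 WT-derived libraries. In KO1 it was 9.71 and 10.1 and in KO2 3.66 and 3.12. In the rescue clones it lay between 1.34 and 1.63, and in the libraries labelled KO2 rescue it was 1.1 and 0.983. The rescue clones thus kept a ratio above every WT-derived library, with CD44 near the WT level and VCAN below it. Both genes have transcripts of several lengths, and a level summed over them and divided by the length of 1 reference transcript is approximate.

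**Figure D2:**
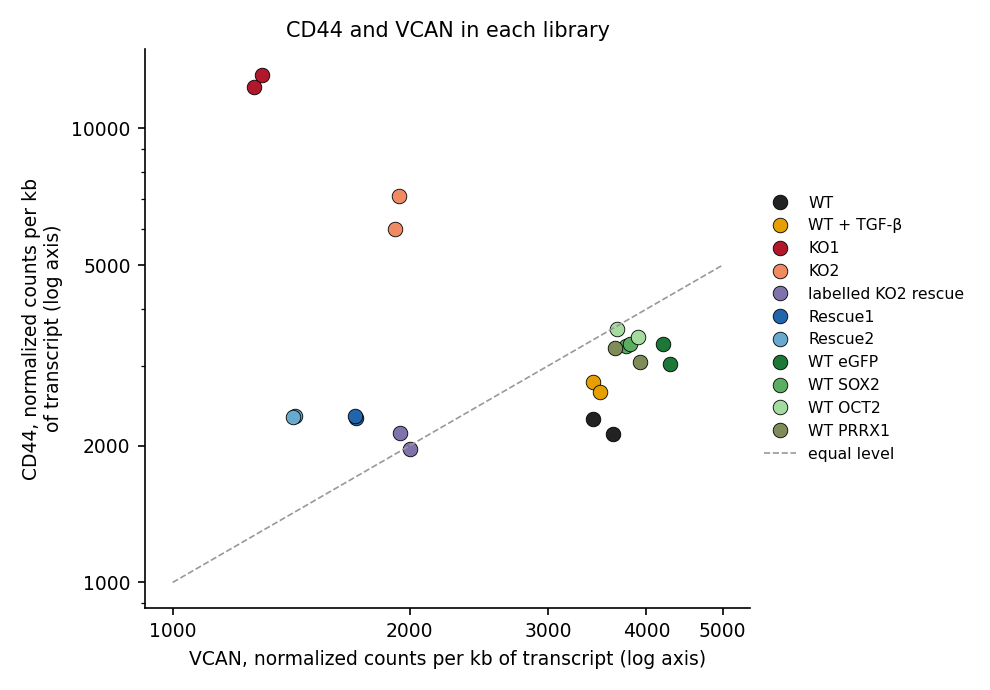
CD44 (vertical axis) against VCAN (horizontal axis), both in normalized counts per kilobase of reference transcript on log axes, with 1 point for each of the 22 libraries and a dashed line of equal level. The WT-derived libraries lie together at lower right, KO1 and KO2 at upper left, and the rescue clones at lower left.

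CEMIP, a secreted hyaluronan-binding protein needed for hyaluronan breakdown, had low values and followed none of the other members. WT had 35.9 and 16.7 normalized counts, KO1 11.4 and 51.7, and KO2 18.1 and 10.6, so the KO libraries overlap WT. The log2 changes from WT were 0 in KO1 (95% interval -1.68 to 1.68) and -0.78 in KO2 (95% interval -2.46 to 0.9). With TGF-β CEMIP had 166 and 85.9, above both WT libraries, a log2 change of 2.24 (SE 0.78) that did not pass (limma adjusted p = 0.0657) and passed at a pseudocount of 5 (adjusted p = 0.0224). KO lay below TGF-β-treated WT by -2.63 (SE 0.68, limma adjusted p = 0.0069), a call lost without TGF-β replicate 1 (adjusted p = 0.0954).

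Rescue1 had 129 and 101 normalized counts of CEMIP and Rescue2 53.4 and 25.7. Rescue1 thus lay above all 4 KO libraries, while Rescue2 overlapped KO1. CEMIP rose from KO to rescue by a log2 change of 1.76 (SE 0.55, limma adjusted p = 0.0173), and the call was lost when KO1 replicate 1 (adjusted p = 0.0767), KO2 replicate 2 (adjusted p = 0.0611), Rescue1 replicate 1 (adjusted p = 0.0507) or Rescue2 replicate 1 (adjusted p = 0.0708) was left out, or with KO1 alone as the reference (1.37, adjusted p = 0.116; 2.15 and 0.0231 with KO2 alone). The eGFP line had 11 and 13.8, and rescue exceeded it by 2.31 (SE 0.68, limma adjusted p = 0.0182), lost without Rescue2 replicate 1 (adjusted p = 0.057), eGFP replicate 1 (adjusted p = 0.124) or eGFP replicate 2 (adjusted p = 0.0682). The 6 libraries with SOX2, OCT2 or PRRX1 had 0 to 3.24, all below both eGFP libraries, and none of these 3 differences passed (limma adjusted p of 0.339, 0.443 and 0.848). Those labelled KO2 rescue held 19.1 and 44.4. The mean was highest with TGF-β and next in Rescue1, whose libraries overlap, and from Rescue2 through the libraries labelled KO2 rescue, KO1, WT and KO2 to eGFP each group overlapped the next. The PRRX1, OCT2 and SOX2 lines came last.

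TNFAIP6, which hands protein chains from inter-α-inhibitor on to hyaluronan, stayed at 0 to 9.31 normalized counts and was listed at 0 in 10 of 22 libraries. It did not reach 10 in any library and was not tested. Both WT, both TGF-β, both Rescue2 libraries and both labelled KO2 rescue were listed at 0, KO1 had 7.6 and 0, and KO2 had 8.05 and 4.85. The highest value, 9.31, was in the SOX2 line, whose other library had 6.79.

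Counted over the 4 tested members, TGF-β lowered 1 (HAS3) and raised 0, where 7.84% of all 14585 genes tested were called (3.58% higher and 4.26% lower). In KO1, 2 rose (HAS3 and CD44) and 1 fell (VCAN), against 25% of all genes called (12% higher and 13.1% lower). In KO2, 2 rose and 0 fell, against 16.3% (9.02% higher and 7.29% lower). From KO to rescue, 1 rose (CEMIP) and 2 fell (HAS3 and CD44), against 23.3% (11.3% higher and 11.9% lower). From eGFP to rescue 1 rose and 1 fell, against 13.1% (6.47% higher and 6.66% lower). From TGF-β to KO 2 rose and 2 fell, against 20.2% (10.3% higher and 9.83% lower). From WT to eGFP 1 rose and 0 fell, against 12.7% (6.49% higher and 6.24% lower). From KO2 to the libraries labelled KO2 rescue 0 rose and 1 fell, against 4.17% (1.65% higher and 2.52% lower), and between the KO clones 0 were called, against 6.97% (2.48% higher and 4.49% lower). With the 3 transduced factors 0 members were called, against 0.0206% of genes for SOX2 (0.0137% higher and 0.00686% lower), 0.0343% for OCT2 (0.0274% higher and 0.00686% lower) and 0.0411% for PRRX1 (0.0343% higher and 0.00686% lower). Where limma called 0 of the 4 members, 3 had an unadjusted p under 0.05 between the KO clones, and 2 (VCAN and CEMIP) with each of the 3 factors. At equal library totals the median gene shifts by -0.2 with TGF-β, -0.4 in KO1, -0.21 in KO2, -0.21 between the KO clones and 0.38 from KO to rescue, and the genes called then split into 357 higher and 937 lower with TGF-β, 1150 and 3008 in KO1, 1069 and 1521 in KO2, 257 and 890 between the KO clones, and 2801 and 1150 from KO to rescue. The corresponding splits without that scaling were 522 and 621, 1744 and 1909, 1315 and 1063, 361 and 655, and 1652 and 1740. These counts are of 4 genes, the comparisons share libraries (WT, both KO clones, TGF-β, Rescue and eGFP each enter several), and they are read 1 gene at a time. The median log2 change of all genes tested lay within 0.03 of 0 in each comparison.

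**Figure D3:**
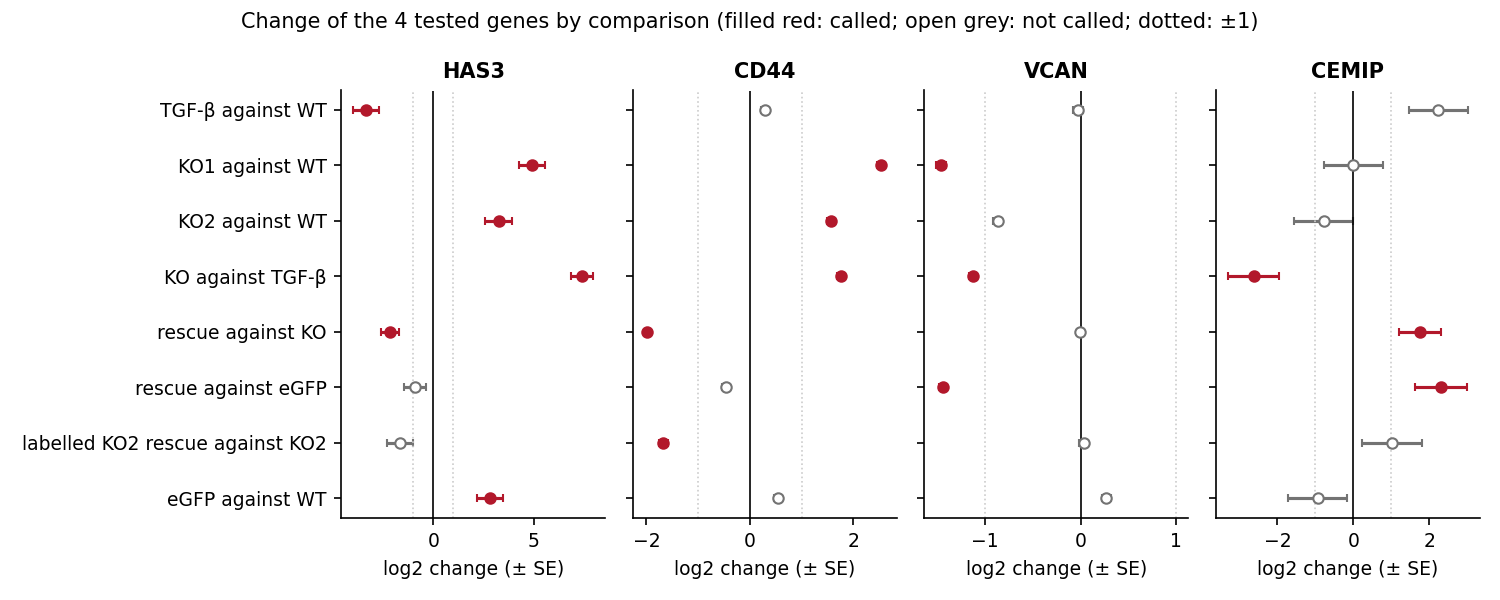
The log2 change with its standard error (horizontal axes) of HAS3, CD44, VCAN and CEMIP in 8 comparisons (vertical axis), filled where the adjusted p was under 0.05 and the absolute change over 1. CD44 rises in both KO clones (2.53 and 1.57) and falls in rescue (-1.98), while VCAN falls in KO1 (-1.46) and differs by -0.01 between rescue and the mean of both KO clones.

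Markers of the tubule and of other cell types were read beside these changes. The 10 tubule epithelial markers summed to 39573 and 43555 normalized counts in WT, 19579 and 17991 in KO1, 27289 and 26453 in KO2 and 42344 to 47530 in the rescue clones, with KRT8, KRT19 or PAX8 the most abundant. Of these 10, 1 rose and 4 fell in KO1, 2 fell in KO2, and 2 rose from KO to rescue, where 25%, 16.3% and 23.3% of all genes tested were called, so the last 2 of these counts are near the share of all genes. The 8 differentiated proximal tubule markers summed to 947 and 1180 in WT, 2019 and 2264 in KO1, 2043 and 1682 in KO2 and 722 to 971 in the rescue clones, and of the 5 tested 3 rose in KO1, 3 rose in KO2 and 2 fell from KO to rescue, read against the same shares. The summed level of 7 fibroblast markers was 12450 and 842 in WT, mostly COL1A1, and 47804 and 46375 with TGF-β, again mostly COL1A1. It was 236648 and 223500 in KO1 and 103682 and 100070 in KO2, mostly DCN (decorin), 41518 and 39178 in the libraries labelled KO2 rescue, and 824 to 1536 in the rescue clones. Of the 7 markers, 3 to 7 reached 10 normalized counts in a library, 4 rose and 1 fell in KO1, 4 rose in KO2, and 5 fell from KO to rescue, again beside those shares. In the 8 transduced WT libraries the tubule epithelial sum was 27228 to 32104, below both WT libraries and, in 7 of 8, above both KO2 libraries, the differentiated proximal tubule sum 791 to 1314 and the fibroblast sum 3682 to 6046. With TGF-β the tubule epithelial sum was 32926 and 34381 and the differentiated proximal tubule sum 1455 and 1349. In the libraries labelled KO2 rescue these were 45174 and 46155, and 1320 and 1166. Between WT, KO and rescue the 3 sums moved with CD44 and HAS3, the tubule epithelial sum in the opposite direction. Within the tubule epithelial list PAX8 went against the sum. Its means were 3032 in WT, 6471 in KO1, 5076 in KO2 and 4376 in rescue. In the libraries labelled KO2 rescue the fibroblast sum stayed above both WT libraries, while CD44 was at 11591 and 10677. From WT to TGF-β the 3 sums moved in the same directions as from WT to KO, while HAS3 fell and CD44 stayed under the fold threshold. With TGF-β limma called 1 of 10 tubule epithelial markers higher and 0 lower. It called 0 of 5 differentiated proximal tubule markers and 3 of 7 fibroblast markers, all higher, where 7.84% of all genes tested were called. AQP1, part of the differentiated proximal tubule sum, was at most 19.1 in the KO clones and reached 448 with TGF-β. The part of these sums in the changes was not tested. Endothelial markers summed to at most 95.9, and leukocyte markers to at most 371, mostly CD68, with CD3E and MS4A1 listed at 0 in all libraries. In bulk RNA, fewer cells of a kind and less RNA per cell cannot be told apart.

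The wider pathway was read from 46 further genes in 6 lists by role, of which 44 were in the table and 28 were tested. PTX3 and ADAMTS5 were not analysed here. The other 16 did not pass the filter on low values, among them the receptors LYVE1, STAB1 and STAB2, the proteoglycans ACAN, BCAN and NCAN and the proteases ADAMTS4 and ADAMTS20, none of which reached 10 normalized counts. The 28 hold MMP14 and CEMIP2, which were chosen after their values were seen. Of the 28, TGF-β raised 7 and lowered 3, where 7.84% of all genes tested were called. Without WT replicate 2 the rises of HAS1, LAYN, TLR2, TLR4, HAPLN3 and ADAMTS9 and the fall of ADAM10 were no longer called. With only the WT and TGF-β libraries fitted, the rises of LAYN, TLR2, TLR4, HAPLN3, ADAMTS9 and MMP14 were lost. KO1 raised 9 and lowered 8, against 25% of all genes, and KO2 raised 5 and lowered 2, against 16.3%. From KO to rescue 7 rose and 4 fell (23.3% of all genes called), from eGFP to rescue 7 rose and 4 fell (13.1%), from WT to eGFP 5 rose and 2 fell (12.7%), and with SOX2, OCT2 or PRRX1 limma called 0, with 2, 2 and 1 at an unadjusted p under 0.05. Their median log2 change was 0.54 with TGF-β, -0.13 in KO1, -0.01 in KO2 and 0.32 from KO to rescue, where the median of all genes was within 0.003 of 0.

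**Figure D4:**
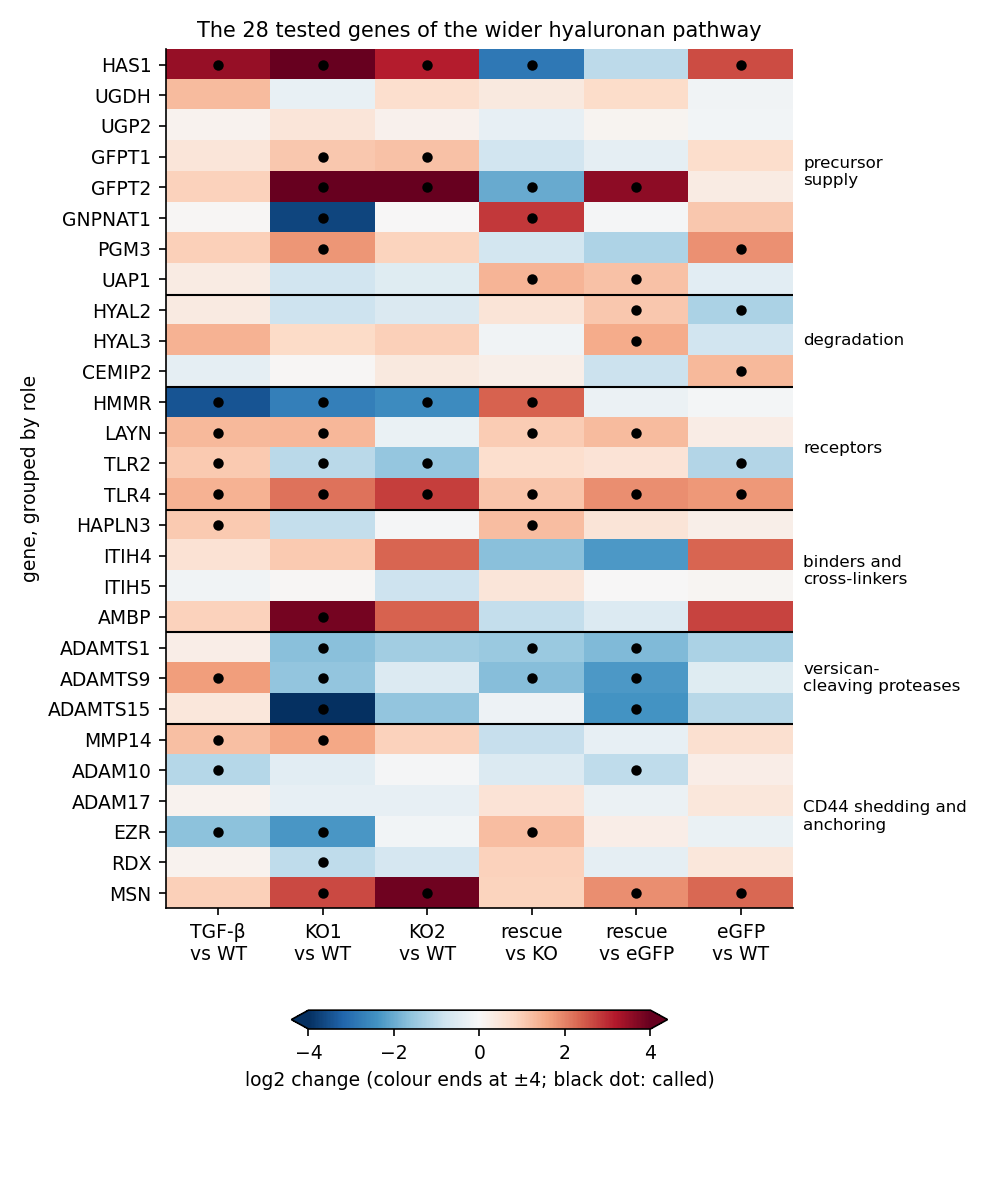
The log2 change (colour, red higher and blue lower) of the 28 tested pathway genes (rows, grouped by role) in 6 comparisons (columns), with a black dot where a gene was called. The versican-cleaving proteases are blue in KO1, in KO2 (where 0 were called) and in rescue against eGFP. The receptor HMMR is blue with TGF-β and in both KO clones, and TLR4 is red in all columns.

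The counts for each role below are small and are read against these same shares. Among the 8 genes of synthesis and precursor supply, 4 rose and 1 fell in KO1, and 3 rose in KO2. HAS1, a further hyaluronan synthase, was listed at 0 in both WT libraries and had 44 and 59.6 normalized counts in KO1 (limma adjusted p = 8.55e-05), 5.8 and 10.3 in KO2 (adjusted p = 0.0127) and 9.8 and 10.5 with TGF-β (adjusted p = 0.0112). The KO1 call held with each library left out. That of KO2 reached 0.0877 without KO2 replicate 2 and was lost without either WT library. That of TGF-β reached 0.0603 without TGF-β replicate 2 and was lost without WT replicate 2 or TGF-β replicate 1. GFPT2, which starts hexosamine synthesis, was also listed at 0 in both WT libraries, with 99.2 and 88.4 in KO1 (limma adjusted p = 0.000123) and 42.3 and 33.5 in KO2 (adjusted p = 0.00119). Both genes were higher in all 4 KO libraries than in either WT library. The acetyltransferase GNPNAT1 had 93.6 and 66.6 in WT and 38.4 and 0 in KO1, a log2 change of -3.67 (SE 1.05, limma adjusted p = 0.0118) that was -1.02 without KO1 replicate 2, where the call was lost (adjusted p = 0.0756), -6.32 without KO1 replicate 1, and lost without WT replicate 1 (adjusted p = 0.0631) or with only those groups fitted (0.227).

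In rescue, 2 of these 8 genes rose from KO and 2 fell, but against KO2 alone the calls of HAS1 (-1.58, limma adjusted p = 0.122), GFPT2 (-1.39, adjusted p = 0.265) and GNPNAT1 (0.97, adjusted p = 0.455) were lost. HAS1 had 0 to 6.08 in the rescue clones and fell by 2.87 on the log2 scale (SE 0.61, limma adjusted p = 0.00136), by 2.18 without Rescue1 replicate 2 and by 3.56 without Rescue1 replicate 1. GFPT2 had 10.1 to 20.1, a log2 change of -2.03 (SE 0.73, limma adjusted p = 0.0341) that was lost without any of the 4 KO libraries (adjusted p of 0.0616 to 0.0835), Rescue1 replicate 1 (0.0936) or Rescue2 replicate 1 (0.104), and at a pseudocount of 0.5 (0.0857), with no filter on low values (0.0518) or at equal library totals (0.0766). GNPNAT1 rose to 144 to 167 (log2 change 2.82, SE 0.74, limma adjusted p = 0.00601; 1.5 with KO1 replicate 2 left out, 4.15 with replicate 1 left out, and adjusted p = 0.067 with only those groups fitted). UAP1, which makes UDP-N-acetylglucosamine, had 1364 to 1657 in the rescue clones against 531 to 677 in the KO clones, a log2 change of 1.37 (SE 0.09, limma adjusted p = 7.63e-09). WT had 1031 and 831 of it, between KO and rescue. Against eGFP, GFPT2 was higher in rescue (eGFP listed 0 and 0.554, limma adjusted p = 0.00726; 0.0778 without eGFP replicate 1).

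Of the 3 tested genes of degradation, HYAL2, HYAL3 and the cell-surface hyaluronidase CEMIP2, 0 were called with TGF-β, in KO1, in KO2 or from KO to rescue by limma, with HYAL3 (TGF-β) and HYAL2 (KO1) at an unadjusted p under 0.05. From eGFP to rescue 2 were higher (HYAL3 and HYAL2), and from WT to eGFP 1 was higher (CEMIP2) and 1 lower (HYAL2). HYAL3 exceeded eGFP in rescue, with 88.7 to 227 normalized counts against 83.3 and 39.3 (log2 change 1.49, SE 0.44, limma adjusted p = 0.0184), and was lost without eGFP replicate 2 (0.96, adjusted p = 0.236) or Rescue1 replicate 1 (adjusted p = 0.0615), with only those groups fitted (0.0501) and without the trend with GC content and length (1.2, adjusted p = 0.0608). HYAL2, a membrane-anchored hyaluronidase, was lower in eGFP (617 and 295) than in WT (1095 and 977), with a log2 change of -1.27 (SE 0.38, limma adjusted p = 0.0226) that was lost without either WT library (adjusted p of 0.0988 and 0.063) or eGFP replicate 2 (-0.74, adjusted p = 0.24), with only those groups fitted (0.0843) and without that trend (-0.83, adjusted p = 0.156). In the rescue clones HYAL2 had 637 to 1158, a log2 change from eGFP of 1.09 (SE 0.33, limma adjusted p = 0.0216) that was lost without eGFP replicate 2 (0.56, adjusted p = 0.336) or Rescue2 replicate 1 (0.99, adjusted p = 0.0611) and without that trend (0.8, adjusted p = 0.0982). CEMIP2 had 803 and 653 in eGFP and 549 and 156 in WT, a log2 change of 1.3 (SE 0.45, limma adjusted p = 0.0432). The change moved to 2.21 when WT replicate 1 was left out. The call was lost without WT replicate 2 (0.4, adjusted p = 0.526), eGFP replicate 1 (0.197) or eGFP replicate 2 (0.0869), with only those groups fitted (0.207), with no filter on low values (0.0614) and without that trend (0.122).

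All 4 tested receptors were called with TGF-β (3 higher, 1 lower) and in KO1 (2 higher, 2 lower), and 3 in KO2 (1 higher, 2 lower). HMMR, which binds hyaluronan and is also a protein of the mitotic spindle, had 285 and 350 normalized counts in WT. TGF-β-treated libraries held 30.6 and 26.2 of it, those of KO1 51.6 and 40.9, and those of KO2 35.1 and 82. It fell by 3.44 on the log2 scale with TGF-β (SE 0.48, limma adjusted p = 0.000155), by 2.75 in KO1 (adjusted p = 0.000325) and by 2.53 in KO2 (adjusted p = 0.000952; -1.93 without KO2 replicate 1 and -3.13 without KO2 replicate 2). In the rescue clones it had 209 to 347, a rise of 2.35 from KO (SE 0.34, limma adjusted p = 4.81e-05). TLR4, an innate immune receptor that hyaluronan fragments engage, had 42.9 and 23.2 in WT and 191 and 260 in KO2, a log2 change of 2.78 (SE 0.27, limma adjusted p = 1.47e-06). It had 364 to 434 in the rescue clones, 1.87 above eGFP (SE 0.23, limma adjusted p = 2.41e-05), and 117 and 99.1 in eGFP, 1.74 above WT (SE 0.27, adjusted p = 0.000203). The eGFP call was lost with only those groups fitted (adjusted p = 0.0665).

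TLR2, its relative, rose with TGF-β and fell in both KO clones and in the eGFP line. With TGF-β it had 1174 and 1128 normalized counts, a log2 change of 1.06 (SE 0.2, limma adjusted p = 0.00158), which was 0.76 when WT replicate 2 was left out and 0.82 at equal library totals. In KO1 it had 227 and 305, a change of -1.07 (SE 0.2, limma adjusted p = 0.000509), which moved to -0.77 when WT replicate 1 was left out and to -0.86 when KO1 replicate 1 was, and was -0.94 without the trend with GC content and length. Both calls were lost when each pair of groups was fitted alone (adjusted p of 0.0712 and 0.0733). It had 681 and 448 normalized counts in WT and 188 and 187 in KO2, a fall of 1.55 on the log2 scale (SE 0.2, limma adjusted p = 2.52e-05), and 255 and 231 in eGFP, a log2 change of -1.18 (SE 0.2, limma adjusted p = 0.000406) that was -0.88 without WT replicate 1. With TGF-β, LAYN (layilin, a membrane lectin for hyaluronan) had 867 and 921 against 475 and 271 in WT, a log2 change of 1.31 (SE 0.18, limma adjusted p = 0.000145), and TLR4 had 88.7 and 81.7, a change of 1.4 (SE 0.27, adjusted p = 0.00181). With only the WT and TGF-β libraries fitted both calls were lost (adjusted p of 0.0743 and 0.138). Without WT replicate 2 these 2 changes were 0.91 and 0.97, under the fold threshold.

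Of the 4 tested binders and cross-linkers, 1 rose with TGF-β, 1 in KO1 and 1 from KO to rescue. AMBP, the precursor of bikunin, had 0 and 1.54 normalized counts in WT and 21.8 and 21.6 in KO1 (limma adjusted p = 0.022), a call lost without WT replicate 1 (adjusted p = 0.133), KO1 replicate 1 (0.0653) or KO1 replicate 2 (0.0754), with a log2 change of 3.83 that was 4.5 without WT replicate 2. HAPLN3, a link protein that ties proteoglycans to hyaluronan, had 259 to 284 in the rescue clones against 78 to 175 in the KO clones, a log2 change of 1.23 (SE 0.12, limma adjusted p = 1.15e-06) that was 0.78 against KO2 alone, under the fold threshold. HAPLN3 was also the gene that rose with TGF-β, by a log2 change of 1.04. That call was lost without WT replicate 2 (0.91) or TGF-β replicate 2 (1.0), at equal library totals (0.81) and without the trend with GC content and length (0.88). It was lost as well with only the WT and TGF-β libraries fitted (limma adjusted p = 0.0569).

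The 3 tested proteases that cleave versican all fell in KO1. In KO2 limma called 0 of 3, with log2 changes of -1.4 for ADAMTS1 (286 and 163 normalized counts, unadjusted p = 0.0322, adjusted p = 0.0934), -1.57 for ADAMTS15 (99.5 and 69.6, adjusted p = 0.175) and -0.56 for ADAMTS9 (1045 and 1149, adjusted p = 0.202). ADAMTS1 and ADAMTS15 were below both WT libraries in both KO2 libraries. For 2 of the 3 the KO1 call depended on single libraries. ADAMTS9, at 562 and 513 normalized counts against 2761 and 947 in WT, had a log2 change of -1.59 (SE 0.31, limma adjusted p = 0.000757), which moved to -0.82 when WT replicate 1 was left out and to -2.36 when WT replicate 2 was. ADAMTS1, at 300 and 104 against 502 and 648, had a change of -1.68 (SE 0.59, limma adjusted p = 0.034), lost without WT replicate 1 (adjusted p = 0.0696), WT replicate 2 (0.144) or KO1 replicate 2 (-0.92, 0.319) and at -2.44 without KO1 replicate 1. With only the WT and KO1 libraries fitted both were lost (adjusted p of 0.102 and 0.1). ADAMTS15 had 267 and 232 normalized counts in WT and 30.5 and 0.852 in KO1, a log2 change of -5.03 (SE 0.81, limma adjusted p = 0.000153) that moved to -2.99 with KO1 replicate 2 left out, to -7.07 with replicate 1 left out, and was not called with only those groups fitted (adjusted p = 0.0726). In rescue all 3 lay below eGFP. ADAMTS9 had 148 to 349 against 1224 and 1119, a log2 change of -2.31 (SE 0.27, limma adjusted p = 1.24e-05), and it fell by 1.7 from KO to rescue (SE 0.22, adjusted p = 1.4e-05). ADAMTS1 had 32.1 to 130 in the rescue clones, with log2 changes of -1.49 from KO (SE 0.42, limma adjusted p = 0.00889) and -1.77 from eGFP (SE 0.51, adjusted p = 0.0165), and ADAMTS15 had 6.15 to 57.1, a change of -2.38 from eGFP (SE 0.7, limma adjusted p = 0.0186). Both calls against eGFP were lost without eGFP replicate 1 (adjusted p of 0.123 and 0.0927) or eGFP replicate 2 (0.0625 and 0.1), that of ADAMTS1 also without replicate 2 of Rescue1 (0.0542) or of Rescue2 (0.0506), and that of ADAMTS15 without Rescue2 replicate 1 (0.0506). With TGF-β, ADAMTS9 had 5001 and 5242 against 2761 and 947 in WT, a log2 change of 1.66 (SE 0.31, limma adjusted p = 0.00148) that was 0.89 without WT replicate 2, 2.43 without WT replicate 1, and not called with only those groups fitted (adjusted p = 0.132).

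Among the 6 genes that shed CD44 or anchor it to actin, 1 was higher and 2 lower with TGF-β, 2 higher and 2 lower in KO1, 1 higher in KO2, 1 higher from KO to rescue (EZR), and 1 higher and 1 lower from eGFP to rescue. The membrane-cytoskeleton linker EZR (ezrin) had 3101 and 4318 normalized counts in WT. TGF-β-treated libraries held 1076 and 1278 of it, and those of KO1 883 and 600. It fell by 1.64 on the log2 scale with TGF-β (SE 0.18, limma adjusted p = 1.43e-05) and by 2.33 in KO1 (SE 0.18, adjusted p = 6.85e-08), while KO2 at 3316 and 3502 lay between the WT libraries. The rescue clones had 3150 to 4175, a log2 change of 1.23 from the mean of both KO clones (SE 0.13) that was 0.12 against KO2 alone (limma adjusted p = 0.59), where the call was lost. ADAM10, a sheddase of CD44, fell by 1.13 with TGF-β (SE 0.1, limma adjusted p = 2.02e-06; -0.99 without WT replicate 2). From eGFP to rescue the change of ADAM10 was -1.03 (SE 0.09, limma adjusted p = 4.66e-07; -0.9 without eGFP replicate 1 and -0.99 without Rescue1 replicate 1). It was also under the fold threshold at equal library totals (-0.92), with quantile normalization (-0.99) and without the trend with GC content and length (-0.94). MMP14, a membrane-bound protease that also sheds CD44 and was chosen after its values were seen, had 838 and 1193 normalized counts in WT. TGF-β-treated libraries held 2548 and 2091 of it, those of KO1 3062 and 2761, and those of KO2 1908 and 1838. It rose by a log2 change of 1.54 in KO1 (SE 0.17, limma adjusted p = 4.61e-06) and of 1.21 with TGF-β (SE 0.17, adjusted p = 0.000184), the latter lost without WT replicate 1 (0.95), at equal library totals (0.97) and with only those groups fitted (adjusted p = 0.0525). MSN (moesin), the relative of ezrin, was listed at 0 in both WT libraries and at 15.3 and 12.3 in KO2 (limma adjusted p = 0.000243), 3.92 and 7.03 in KO1 (adjusted p = 0.00366) and 11.7 to 26.5 in the rescue clones. Its change from eGFP to rescue was 1.86 (SE 0.55, limma adjusted p = 0.0184) and was lost without eGFP replicate 1 (adjusted p = 0.0517) or replicate 2 (adjusted p = 0.142), or with only those groups fitted (0.0544).

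From WT to eGFP, calls further included MSN, HAS1 and PGM3. MSN had 5.06 and 2.98 in eGFP and HAS1 6.47 and 3.93, both with WT listed at 0 (limma adjusted p of 0.0142 and 0.0379). The mutase PGM3 had 656 and 366 against 82.5 and 228, a log2 change of 1.83 (SE 0.6, limma adjusted p = 0.0351). The HAS1 call was lost without any of the 4 libraries (adjusted p of 0.0754 to 0.18), at a pseudocount of 5 (0.0902) or with no filter on low values (0.0576). That of MSN was lost without either WT library (0.0549 and 0.0576) or eGFP replicate 1 (0.104) or at a pseudocount of 5 (0.0748), and that of PGM3 without WT replicate 1 (0.29) or eGFP replicate 1 (0.232), with only those groups fitted (0.0991) or without the trend with GC content and length (0.107), with a change of 2.56 without WT replicate 2.

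The genes whose pattern over the 11 group means was most like that of each member were taken by Pearson's r among 7066 genes that vary. This is a description over group means that share libraries. For HAS3 they were PAX8 (r = 0.975), ZNF592 (0.958) and ITGB8 (0.953). For CD44 they were IL33 (0.978), NAMPTP1 (0.978) and IZUMO4 (0.967), for VCAN ZNF667 (0.975), PTPN13 (0.968) and UGT1A1 (0.967), and for CEMIP PDCD6IP (0.925), DIMT1 (0.922) and RNF24 (0.899). PAX8, a transcription factor of the renal lineage, ranged from 1535 to 6561 normalized counts.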

How the data were processed

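RNA-seq of 22 RPTEC libraries in 11 groups was read from 1 table, and groups were taken from the labels. The authors quantified reads with Salmon 1.9.0 against the GRCh38 cDNA set of Ensembl release 94, followed by DESeq2 1.26.0 (versions per the submitters' processing notes). The values they deposited are log2 values between 11.32 and 21.28 for 36859 genes, and their transformation is not named in the sources used here. All libraries share 11.32 as lowest value, the form of a variance-stabilizing transformation, so it was inverted to normalized counts with 11.32 as 0. Read depth was approximated from the commonest low value of each library. Salmon's estimates need not be whole, so no count test was run, and precision is limited for genes with few reads. HAS2, PTX3 and ADAMTS5 were not analysed here. For genes with at least 1000 normalized counts, duplicates differed by a median absolute log2 value of 0.064 to 0.174.

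Symbols, positions and transcripts came from GENCODE release 44 (33878 genes matched). Limma 3.58.1 in R 4.3.3, with a variance trend, was fitted to log2(normalized count + 1) for all libraries with a mean per group, over the 14585 genes that reached 10 normalized counts in 2 or more libraries, with Benjamini-Hochberg adjustment. A gene was called, here "rose" or "fell", where adjusted p was below 0.05 and the log2 change exceeded 1 in size, and folds are on that scale. KO and rescue are means of both clones. On simulated data for 14585 genes, with normal noise of the typical spread at each level, 200 genes were given a log2 change of 2 in KO1. Against WT, 140 (70%) of them were called, with 4 unchanged genes. The other comparisons were not simulated, and the noise is simpler than that of the libraries.

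Members and lists were chosen with earlier results of these data known. Other pathway genes are named if called in KO1, KO2 or TGF-β against WT, rescue against KO or a comparison with eGFP, up to the 4 largest rises and 4 largest falls of each. HPRT1, POLR2A, EEF2, MMP14 and CEMIP2 were chosen after their values were seen. Other settings tried were a pseudocount of 0.5 or 5, testing all genes, testing genes with a mean of 50 or more, equal library totals, quantile normalization, a replicate block, the deposited log2 scale, only the libraries compared, each library left out and, chosen after seeing the data, removal of a trend with GC content and length in 30 bins and rescue against each KO clone alone. No pairing of libraries by replicate number was visible: over 55 pairs of groups the correlation of deviations was -0.16 to 0.1. Python 3.11.15, numpy 2.4.6, pandas 2.3.3 and matplotlib 3.10.9 were used.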

Additional observations from a re-analysis of the deposited data

Results flagged for a closer look

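The KO clones KO1 and KO2 were made with the same guide, carry different frameshifts and differed from each other at an adjusted p under 0.05, with no fold threshold, for 10 of the 32 members and pathway genes tested (31.2%), where 16% of all 14585 genes did, by a direct limma test of KO1 against KO2 in the fit of all libraries. Since each is 1 clone, lesion and clone cannot be told apart. Among the members, CD44 was higher in KO1 by a log2 value of 0.96 (SE 0.08, adjusted p = 8.94e-07), with means of 69080 and 35540 normalized counts (1.07 without the trend with GC content and length), and VCAN was lower by -0.59 (SE 0.05, adjusted p = 8.94e-07), with means of 15830 and 23820.

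Among the receptors and binders, LAYN was higher in KO1 by 1.59 (adjusted p = 3.53e-05; means 897.6 and 296.8) and the link protein HAPLN3 lower by -0.9 (adjusted p = 0.00269; means 83.93 and 157.9). The proteases ADAMTS9 and ADAMTS15 were lower in KO1 by -1.03 (adjusted p = 0.0349; means 537.6 and 1097) and -3.46 (adjusted p = 0.0094; means 15.65 and 84.55). MMP14 was higher in KO1 by 0.63 (adjusted p = 0.0218; means 2911 and 1873). ADAM10 differed by -0.37 (adjusted p = 0.02; means 4675 and 6034), EZR by -2.22 (adjusted p = 9.15e-07; means 741.9 and 3409), and GNPNAT1 by -3.7 (adjusted p = 0.0265; means 19.22 and 80.6, with 1 of the KO1 libraries listed at 0). With 1 library left out, GNPNAT1 ranged from -6.35 (without KO1 replicate 1) to -1.05 (without KO1 replicate 2, adjusted p = 0.129) and was also lost without KO2 replicate 1 (0.0971) or replicate 2 (0.116) and with only those groups fitted (0.324). ADAMTS15 ranged from -5.51 (without KO1 replicate 1) to -1.42 (without KO1 replicate 2) and was lost without KO2 replicate 1 (adjusted p = 0.0624) and with only those groups fitted (0.266). ADAMTS9 ranged from -1.1 to -0.96 and was lost without any of the 4 KO libraries (adjusted p of 0.0643 to 0.163) and without the trend with GC content and length (-0.94, adjusted p = 0.058).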

How the results depend on the processing

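Of 17 calls of the members, 7 were lost under at least 1 alternative other than the deposited scale, and of all 97 calls of members and pathway genes in the 12 comparisons 56 were. On the deposited log2 scale, which compresses low values, 10 member calls fell under the fold threshold, and genes called numbered 31 with TGF-β, 178 in KO1, 94 in KO2, 23 between KO clones, 134 from TGF-β to KO, 96 from KO to rescue, 35 from eGFP to rescue, 35 for the libraries labelled KO2 rescue, 36 from WT to eGFP, and 0 for SOX2, OCT2 and PRRX1. With only the libraries compared they numbered 431 with TGF-β, 2241 in KO1, 255 between KO clones, 1208 from WT to eGFP, 6 for SOX2, 1 for OCT2 and 1 for PRRX1, against 1143, 3653, 1016, 1856, 3, 5 and 6. With a mean of at least 50 they were 1942 from TGF-β to KO (2939), 2147 from KO to rescue (3392), 3 for OCT2 and 3 for PRRX1. Without a filter SOX2, OCT2 and PRRX1 had 16, 14 and 18. SOX2 had 7 at a pseudocount of 0.5, 6 at equal totals and 1 without the trend with GC content and length, and OCT2 had 3 at a pseudocount of 5 and 3 without that trend. With each library left out, calls ranged from 739 (without WT replicate 2) to 1308 with TGF-β, from 642 (without KO2 replicate 2) to 1745 (without KO1 replicate 1) between KO clones, and from 7 to 36, 3 to 37 and 7 to 41 for SOX2, OCT2 and PRRX1, each highest without eGFP replicate 2.

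Some log2 changes that were not called changed sign, including changes of HAS3 near 1 in size (-0.91 from eGFP to rescue, 0.91 with SOX2, 1.1 with OCT2 and 0.98 with PRRX1) and of CEMIP between KO clones (0.78). CEMIP in KO1 was -0.01 at a pseudocount of 0.5, -0.39 at equal totals and -0.07 with quantile normalization, and -1.04 to 1.04 with each library left out, or -0.26 to 1.82 between KO clones. VCAN with TGF-β was -0.07 to 0.01 with each library left out, VCAN from KO to rescue was 0.28 against KO1 alone, 0.38 at equal totals and 0.33 with quantile normalization, and VCAN from WT to eGFP was -0.05 without the trend with GC content and length. With each library left out HAS3 was -2.37 to 0.54 from eGFP to rescue, -0.54 to 2.37 with SOX2, -0.35 to 2.56 with OCT2 and -0.48 to 2.43 with PRRX1, and CD44 was -0.01 to 0.14 with SOX2 and -0.08 to 0.06 with PRRX1, where it was 0.01 at equal totals, 0.03 with quantile normalization and 0.04 without that trend. The cause of these changes was not tested.

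Over 55 pairs of groups, libraries with the same replicate number had deviations correlated at -0.16 to 0.1 (median 0.01), so no pairing by replicate number was visible. Whether they share a culture day or a batch is not stated. With the replicate number as a block, 1116 genes were called with TGF-β, 3643 in KO1, 2356 in KO2, 3402 from KO to rescue and 1905 from eGFP to rescue, and 0 of 128 results on members and pathway genes changed call.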
